A study of Mus musculus with 2 samples.

Results

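Ccl1, Ccl3, Ccl4, Ccl5 and Xcl1 are 5 chemokine genes that activated T cells and natural killer (NK) cells are known to use. They were described in immune cells of mouse tumours that differed in Tdg, the gene of thymine DNA glycosylase. The 5 were picked by symbol among 32245 gene symbols, and each matched 1 listed gene. The Tdg_KO group was 1 library from KPT tumours with the genotype Tdg KO, and the Tdg_WT group 1 library from KP tumours with the genotype WT. Both were allograft tumours taken on day 14 after inoculation, and live CD45-positive cells were sorted from each after Percoll density centrifugation. The series title places the study in p53-deficient cancer, and the labels do not spell out KP or KPT. The labels give neither the number of animals behind a library nor whether tumour cells, host cells or both carried the knockout. The labels state no age or strain of the mice.

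Chemokines are small secreted proteins that steer leukocytes along gradients by binding G-protein-coupled receptors. Ccl3 and Ccl4, also called MIP-1 alpha and MIP-1 beta, draw monocytes and lymphocytes, and Ccl3 acts on Ccr1. Ccl5, also called RANTES, binds Ccr1 and Ccr3. Ccl1 acts on Ccr8, a receptor of regulatory and type 2 T cells. Xcl1, or lymphotactin, draws Xcr1-bearing type 1 conventional dendritic cells (cDC1), and in tumours NK cells are a known source of both Xcl1 and Ccl5.

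Of the 5 genes, 4 lay on mouse chromosome 11 and Xcl1 on chromosome 1 (build mm10, GENCODE M21 annotation). Ccl5 (chr11:83525778-83530518) and Ccl3 (chr11:83647844-83649355) were on the minus strand, and Ccl4 (chr11:83662584-83664683) on the plus strand. The start sites of Ccl3 and Ccl4 were 13229 bases apart and pointed away from each other. Ccl1 (chr11:82176657-82305690, minus strand) had 3 annotated transcripts, of which the shortest spanned 3154 bases at the 3′ end of the gene. Xcl1 (chr1:164931644-164935527) was on the minus strand. The 250 bases before the RefSeq start site (build GRCm38.p6, minus strand, 5′ to 3′ in the direction of the gene) are shown for Ccl1, Ccl3 and Xcl1, the members with a window in the RefSeq table used. Capitals mark GGAAA, the core letters that NFAT proteins bind, and TGTGGT, the core letters of Runx sites, on either strand.
Ccl1 promoter, chr11:82179813-82180062: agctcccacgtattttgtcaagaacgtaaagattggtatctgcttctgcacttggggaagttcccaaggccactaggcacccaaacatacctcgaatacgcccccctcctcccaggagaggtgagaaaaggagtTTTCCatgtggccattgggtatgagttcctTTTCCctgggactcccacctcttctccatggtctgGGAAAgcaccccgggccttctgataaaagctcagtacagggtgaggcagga
Ccl3 promoter, chr11:83649379-83649628: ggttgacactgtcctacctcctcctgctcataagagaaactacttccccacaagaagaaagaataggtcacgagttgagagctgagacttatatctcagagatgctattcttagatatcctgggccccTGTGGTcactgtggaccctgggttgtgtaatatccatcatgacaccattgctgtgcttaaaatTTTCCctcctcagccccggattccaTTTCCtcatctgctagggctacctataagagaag
Xcl1 promoter, chr1:164935523-164935772: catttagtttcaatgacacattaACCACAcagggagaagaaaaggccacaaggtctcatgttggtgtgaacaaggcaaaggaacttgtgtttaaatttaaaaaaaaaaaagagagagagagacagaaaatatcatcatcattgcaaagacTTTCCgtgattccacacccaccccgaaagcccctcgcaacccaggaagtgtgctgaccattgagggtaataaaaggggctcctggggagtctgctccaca
GGAAA matched 3 times in the Ccl1 window, 2 times in that of Ccl3 and 1 time in that of Xcl1, and 55.6% of 32851 mouse windows of this length held it. TGTGGT matched 1 time in the Ccl3 window and 1 time in that of Xcl1, against 14% of all windows. The letters TATAAA (12.4% of all windows) and the AP-1 letters TGANTCA (6.75%) were in none of the 3. No searched motif overlapped another in these windows. A match describes letters and is no measured binding.

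The Tdg_KO library held 5693 kept barcodes with 52586319 unique molecular identifiers (UMIs, counted transcript molecules) over all its barcodes, and the Tdg_WT library 5504 with 39819010. The kept barcodes had a median of 6419 UMIs in Tdg_KO and 5378 in Tdg_WT, and 8 barcode sequences occurred in both libraries. Tdg itself was at 26.5 CPM in Tdg_KO and 25.1 CPM in Tdg_WT, so the 3′ UMIs did not show a loss of Tdg RNA in the sorted cells, and 3′ tags do not check a deletion elsewhere in the gene. CPM is the number of UMIs of the gene per 1000000 UMIs of the same cells. Cells were clustered without the 5 chemokines, and clusters were named only from marker genes, which gave 16 classes, of which 13 had at least 50 cells in each library. A further T cell cluster led by Klra1, Ly6c2 and Cd7 met no naming rule and was kept as the Klra1-led cluster. With 1 library a group there is no replicate and no test. Each ratio is the CPM in Tdg_KO over that in Tdg_WT with its exact 95% counting interval, which covers counting error only, and a ratio was called higher or lower at 1.5-fold or more with the interval on that side of 1. Barcodes with marker UMIs of at least 2 of the T and NK, phagocyte and B cell lineages made up 19.5% of kept barcodes in Tdg_KO and 12.6% in Tdg_WT. Clusters dominated by such barcodes were left unnamed, and their share of each gene's UMIs is given beside the classes.

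The 5 genes did not share 1 kind of source cell. NK-like cells held 42.6% in Tdg_KO and 52.1% in Tdg_WT of the Ccl5 UMIs and 31.5% in Tdg_KO and 43.4% in Tdg_WT of those of Xcl1. CD4 T-like cells held 20.1% in Tdg_KO and 52.2% in Tdg_WT of the Ccl1 UMIs. For Ccl3 and Ccl4 the name of lymphocyte chemokine went against the data. Basophil-like cells held 46.8% in Tdg_KO and 51.5% in Tdg_WT of the Ccl3 UMIs and 31% in Tdg_KO and 53.1% in Tdg_WT of those of Ccl4, although they were only 0.667% of kept cells in Tdg_KO and 1.36% in Tdg_WT. Neutrophil-like cells added 16% in Tdg_KO and 32.9% in Tdg_WT for Ccl3. The unnamed clusters of 2 lineages were 9.91% of kept cells in Tdg_KO and 5.21% in Tdg_WT. They held 27.1% of the Ccl1 UMIs in Tdg_KO and 10.2% in Tdg_WT, and 22.7% and 6.27% of those of Ccl4, so a class total leaves out more UMIs in Tdg_KO than in Tdg_WT.

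**Figure D1:**
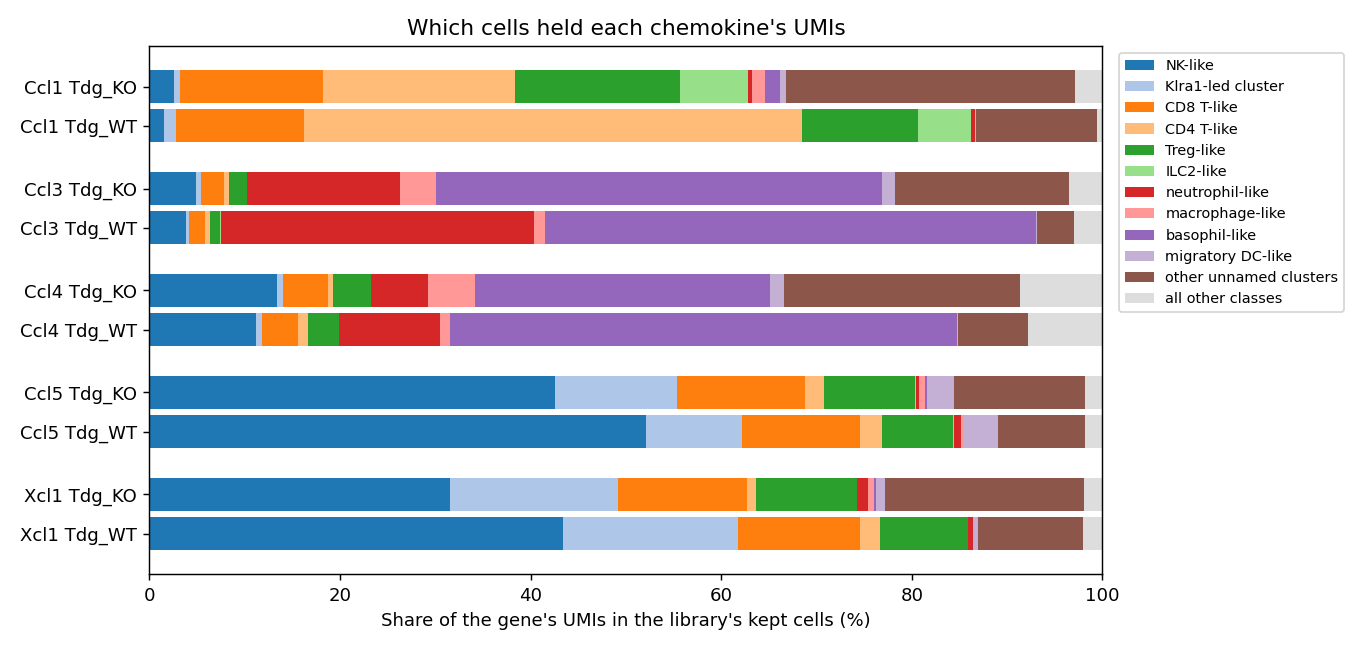
Stacked bars give the share (%) of each gene's UMIs in the kept cells of a library by cell class, with the Tdg_KO bar above the Tdg_WT bar for each gene. Basophil-like cells take 46.8% in Tdg_KO and 51.5% in Tdg_WT of the Ccl3 bar, and CD4 T-like cells 20.1% in Tdg_KO and 52.2% in Tdg_WT of the Ccl1 bar.

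**Figure D2:**
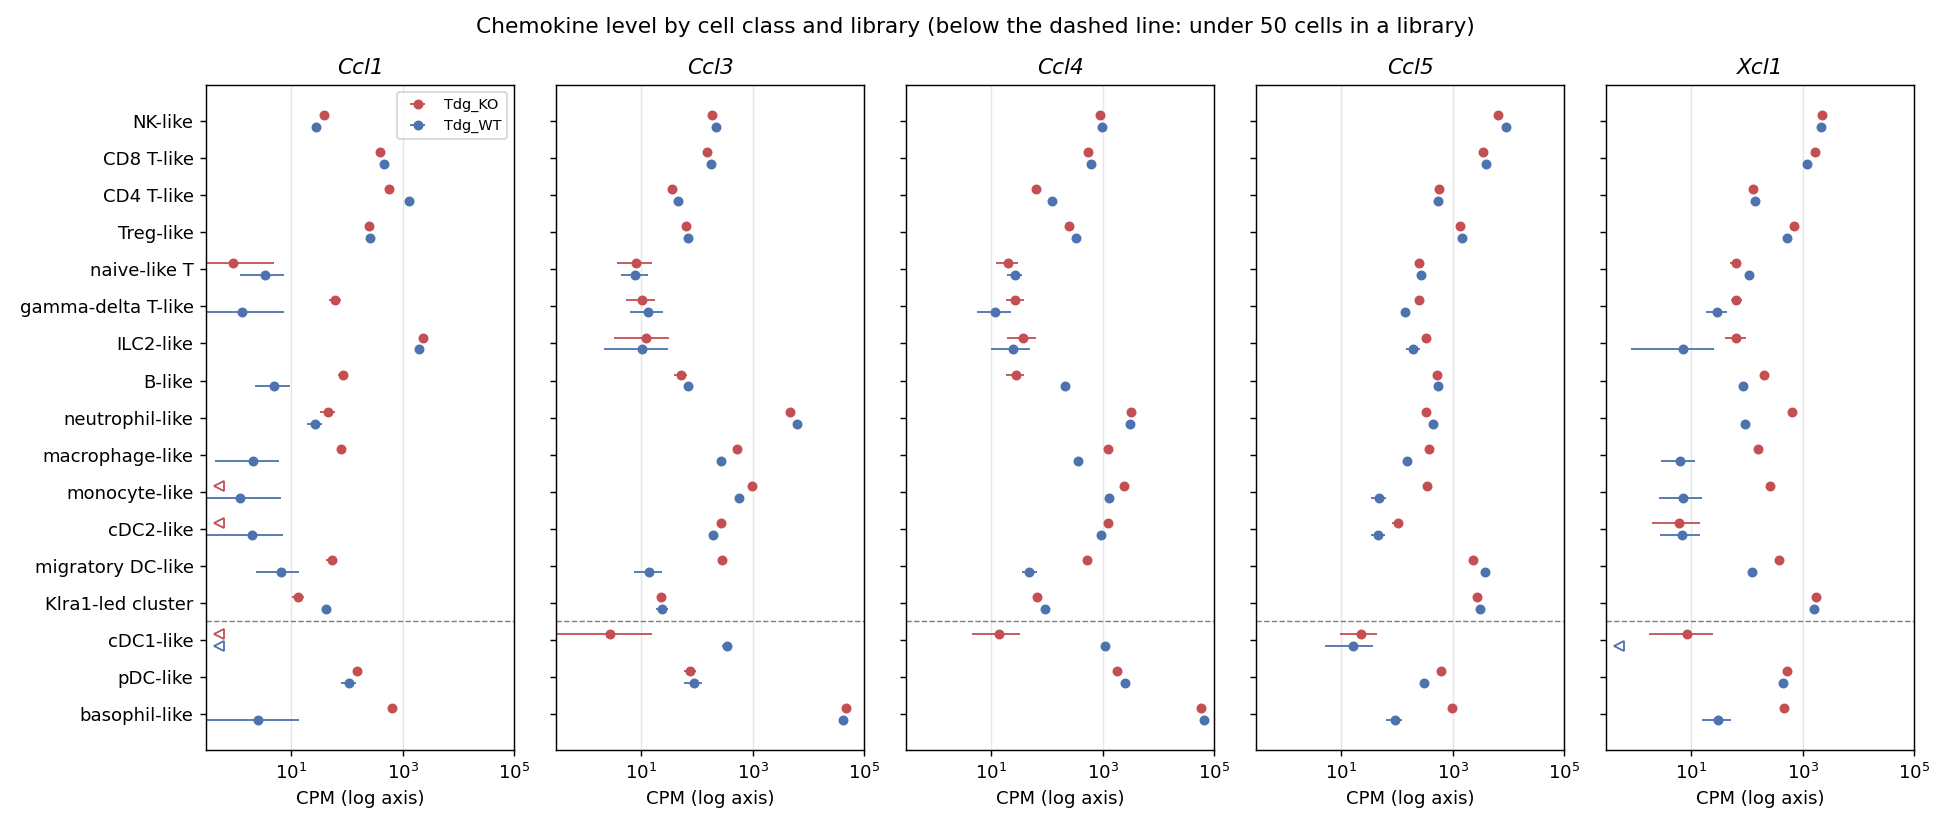
Points give CPM (log axis) of each gene in every class, Tdg_KO above Tdg_WT in each row, with 95% counting intervals, and open triangles mark classes with no UMI. Basophil-like cells stand at 47613 CPM of Ccl3 in Tdg_KO and 41303 CPM in Tdg_WT, the highest Ccl3 level of any class.

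Ccl1 was highest, relative to all UMIs of a class, among the compared classes in cells like group 2 innate lymphoid cells (ILC2-like), at 2346 CPM in Tdg_KO and 1992 CPM in Tdg_WT. CD4 T-like cells followed at 577 CPM in Tdg_KO and 1301 CPM in Tdg_WT, then CD8 T-like cells at 401 CPM in Tdg_KO and 471 CPM in Tdg_WT and regulatory T (Treg)-like cells at 245 CPM in Tdg_KO and 262 CPM in Tdg_WT. Each of these 4 classes stood above the next beyond the counting intervals in both libraries, while the classes below them were not all ordered in that way. Ccl1 was a gene of few cells with many UMIs. It was seen in 13.8% of Tdg_KO and 19% of Tdg_WT cells of the CD4 T-like class, and 3.42% of the Tdg_KO and 7.83% of the Tdg_WT cells had 10 or more UMIs and held 93.8% and 95.7% of the class's Ccl1 UMIs. In ILC2-like cells, 26.2% of the Tdg_KO and 18.5% of the Tdg_WT cells reached 10 UMIs. cDC1-like cells, of which none were of 2 lineages, had Ccl1 in 0 of 55 cells in Tdg_KO, which allows a share of up to 5.45%, and in 0 of 47 in Tdg_WT, which allows up to 6.38%. These limits, 3 cells of the total, are for cells with a Ccl1 UMI at this depth, not for cells that express the gene.

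In CD4 T-like cells Ccl1 was lower in Tdg_KO, with a ratio of 0.444 (0.422 to 0.466). Of the 5 genes, all of which had at least 50 UMIs in this class, 2 were called, both lower, against 1.4% of all genes called lower and 5.18% called in either direction. The second was Ccl4, at 62.8 CPM in Tdg_KO and 124 CPM in Tdg_WT, a ratio of 0.507 (0.433 to 0.594), but 1 Tdg_WT barcode held 43.2% of its Ccl4 UMIs and the ratio was 0.772 without the top barcode of each library. For Ccl1 the top barcode held 27.5% of the UMIs in Tdg_KO and 10.3% in Tdg_WT, and without both the ratio was 0.361. Barcodes of 2 lineages held 34.6% in Tdg_KO and 14.5% in Tdg_WT of the CD4 T-like Ccl1 UMIs, and the ratio was 0.34 without them. The difference lay in 1 of the 2 CD4 T-like clusters. In the cluster led by Tnfsf11, Cxcr6 and Cd4, Ccl1 was at 1021 CPM in Tdg_KO and 2464 CPM in Tdg_WT, a ratio of 0.414 (0.392 to 0.437), and was seen in 26.1% of Tdg_KO and 34.5% of Tdg_WT cells. In the cluster led by Ramp3, S1pr1 and Cd28 it was at 207 CPM in Tdg_KO and 84.5 CPM in Tdg_WT, a ratio of 2.45 (2.04 to 2.94) in the other direction, in 4.62% of Tdg_KO and 3.63% of Tdg_WT cells. Both fewer cells with Ccl1 and fewer UMIs per such cell went with the lower class value, since thinning every cell to 1000 UMIs left 6.14% of Tdg_KO and 10.9% of Tdg_WT cells with Ccl1, and cells with Ccl1 averaged 24.2 UMIs in Tdg_KO and 39.6 in Tdg_WT. The cluster led by Tnfsf11, Cxcr6 and Cd4 held 276 of 644 Tdg_KO and 357 of 715 Tdg_WT cells of the class. The part of this in the class value was not tested.

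As clustered, the other classes rich in Ccl1 did not pass 1.5-fold. The ratio was 1.18 (1.06 to 1.32) in ILC2-like cells, from 61 cells in Tdg_KO and 54 in Tdg_WT. It was 0.851 (0.791 to 0.915) in CD8 T-like cells, where the cluster led by Cd8a, Cd8b1 and Lag3 was at 579 CPM in Tdg_KO and 719.6 CPM in Tdg_WT and the cluster led by Cd8b1, Cd8a and Ly6c2 at 1.61 CPM in Tdg_KO and 0.981 CPM in Tdg_WT. With every cell thinned the CD8 T-like ratio was 0.54, past 1.5-fold. It was 0.935 (0.87 to 1) in Treg-like cells and 1.87, in the other direction, in classes drawn from marker UMIs. Of the Treg-like clusters, the one led by Tnfrsf4, Ikzf2 and Tnfrsf9 was at 384 CPM in Tdg_KO and 576 CPM in Tdg_WT, called lower at 0.667 (0.62 to 0.717), and the cluster led by Tnfrsf4, Foxp3 and Il2ra at 34.2 CPM in Tdg_KO and 3.03 CPM in Tdg_WT, called higher at 11.3 (5.52 to 26.8). In several classes with little Ccl1, 1 barcode held most of its UMIs. In macrophage-like cells Ccl1 was at 79.3 CPM in Tdg_KO and 2.09 CPM in Tdg_WT, with 67.1% of the Tdg_KO UMIs in 1 barcode, and the ratio fell below 1 (0.623) without barcodes of 2 lineages. In the Klra1-led cluster the ratio was 0.314 (0.23 to 0.425) with all barcodes and 1.16 without the top barcode of each library, which held 60.6% of the UMIs in Tdg_KO and 89.3% in Tdg_WT.

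Ccl3 and Ccl4 were highest by far in basophil-like cells, a cluster led by Hdc, Il6 and Ifitm1 and named from a marker set with the basophil protease gene Mcpt8. Ccl3 was at 47613 CPM in Tdg_KO and 41303 CPM in Tdg_WT and Ccl4 at 57718 CPM in Tdg_KO and 64797 CPM in Tdg_WT. Every basophil-like cell of both libraries held UMIs of both genes, in 38 cells in Tdg_KO and 75 in Tdg_WT. In the median cell the 2 genes together made up 13.9% of all UMIs in Tdg_KO and 10.2% in Tdg_WT, with a range of 0.195% to 27.7% over Tdg_KO cells and 0.824% to 33.8% over Tdg_WT cells. No single barcode carried the class, since the top one held 7.73% of the UMIs in Tdg_KO and 3.97% in Tdg_WT for Ccl3 and 7.14% of the UMIs in Tdg_KO and 3.22% in Tdg_WT for Ccl4. The class had fewer than 50 cells in Tdg_KO, and its ratios of 1.15 (1.13 to 1.18) for Ccl3 and 0.891 (0.873 to 0.909) for Ccl4 were computed after these values were seen. Neither passed 1.5-fold. Ccl1, Ccl5 and Xcl1 were at 645 CPM in Tdg_KO and 2.52 CPM in Tdg_WT, 958 CPM in Tdg_KO and 90.7 CPM in Tdg_WT and 471 CPM in Tdg_KO and 30.2 CPM in Tdg_WT in the same cells, and in Tdg_KO a single barcode held 73.6%, 55% and 83.2% of those UMIs.

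Among the compared classes, neutrophil-like cells were highest in both genes, with Ccl3 at 4729 CPM in Tdg_KO and 6347 CPM in Tdg_WT and Ccl4 at 3234 CPM in Tdg_KO and 3110.3 CPM in Tdg_WT. Ccl3 was seen in 65.1% of Tdg_KO and 66.5% of Tdg_WT cells and Ccl4 in 47.7% of Tdg_KO and 47% of Tdg_WT cells. Monocyte-like cells came next, with Ccl3 at 966 CPM in Tdg_KO and 562 CPM in Tdg_WT and Ccl4 at 2441 CPM in Tdg_KO and 1299 CPM in Tdg_WT. The order then split between the genes. For Ccl3, macrophage-like cells (536 CPM in Tdg_KO and 269.5 CPM in Tdg_WT) came before cells like type 2 conventional dendritic cells (cDC2-like, 275 CPM in Tdg_KO and 191 CPM in Tdg_WT) and NK-like cells (184 CPM in Tdg_KO and 221 CPM in Tdg_WT). For Ccl4, cDC2-like cells (1272 CPM in Tdg_KO and 951 CPM in Tdg_WT), NK-like cells (909.6 CPM in Tdg_KO and 974 CPM in Tdg_WT) and macrophage-like cells (1268 CPM in Tdg_KO and 356 CPM in Tdg_WT) were not ordered alike in both libraries beyond the intervals. Cells like plasmacytoid dendritic cells (pDC-like) had Ccl4 at 1833 CPM in Tdg_KO and 2542 CPM in Tdg_WT, and Ccl3 at 76.4 CPM in Tdg_KO and 87.5 CPM in Tdg_WT, in 53 cells in Tdg_KO and 25 in Tdg_WT. CD8 T-like cells had Ccl3 at 154 CPM in Tdg_KO and 183 CPM in Tdg_WT and Ccl4 at 555 CPM in Tdg_KO and 615 CPM in Tdg_WT. Naive-like T cells had 8.09 CPM in Tdg_KO and 7.85 CPM in Tdg_WT of Ccl3, the lowest mean level of the compared classes, and held it in 4.02% of Tdg_KO and 4.88% of Tdg_WT cells, at a median depth of 5953 UMIs in Tdg_KO and 5989 in Tdg_WT. Neutrophil-like cells had medians of 2258 and 1801 UMIs.

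Among NK-like clusters the level of both genes in both libraries was highest in the cluster led by Gzma, Prf1 and Irf8. There Ccl4 was at 3222 CPM in Tdg_KO and 3329 CPM in Tdg_WT and Ccl3 at 742 CPM in Tdg_KO and 794 CPM in Tdg_WT. The cluster led by Gzma, Eomes and Klra4 had Ccl4 at 1087 CPM in Tdg_KO and 956 CPM in Tdg_WT, and the cluster led by Gzmc, Klrb1b and Klrc1 at 141 CPM in Tdg_KO and 78.5 CPM in Tdg_WT, a ratio of 1.79 (1.5 to 2.16) that was called higher. The small cluster led by Gzma, Klra4 and Klre1, of 40 Tdg_KO and 44 Tdg_WT cells, was called lower for both genes, with Ccl4 at 467 CPM in Tdg_KO and 1743 CPM in Tdg_WT, a ratio of 0.268 (0.206 to 0.343), and Ccl3 at 190.4 CPM in Tdg_KO and 427 CPM in Tdg_WT, a ratio of 0.446 (0.287 to 0.676). Over the whole NK-like class the ratios were 0.829 (0.766 to 0.898) for Ccl3 and 0.934 (0.9 to 0.969) for Ccl4. Both were below 1 and neither was called, although the Ccl3 ratio was 0.65, past 1.5-fold, with every cell thinned to 1000 UMIs. None of the 5 genes was called in NK-like cells, against 3.83% of all genes, and none in CD8 T-like cells, against 4.52%, or Treg-like cells, against 4.62%. Several of these ratios depended on the processing. In NK-like cells Ccl1 (1.38, interval 1.13 to 1.68) was 1.61 without the top barcode of each library, 1.85 with the chemokines used for clustering and 0.336 in classes drawn from marker UMIs. The same marker classes gave 0.555 for Ccl3, 0.652 for Ccl4 and 1.77 for Xcl1 in CD8 T-like cells, and 2.72 for Ccl3 and 1.56 for Ccl4 in Treg-like cells. Thinning gave 0.634 for Ccl3 in CD8 T-like cells and 1.6 for Xcl1 in Treg-like cells. Each of these alternative values was past 1.5-fold.

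Macrophage-like and monocyte-like cells had more of both genes in Tdg_KO. Macrophage-like cells had Ccl4 at 1268 CPM in Tdg_KO and 356 CPM in Tdg_WT, a ratio of 3.56 (3.24 to 3.93), and Ccl3 at 536 CPM in Tdg_KO and 269.5 CPM in Tdg_WT, a ratio of 1.99 (1.76 to 2.24). Both were called higher, and so were the other 3 genes in these cells, against 19.3% of all genes called there and 15.7% called higher. All 3 macrophage-like clusters had a higher Ccl4 level in Tdg_KO, from 1.95 (1.33 to 2.84) in the cluster led by Mmp12, Arg1 and Lyz2 to 5.39 (4.04 to 7.32) in that led by Apoe, C1qb and C1qa. For Ccl3 the cluster led by Mmp12 had a ratio of 0.958 (0.7 to 1.3). Barcodes of 2 lineages held 47.2% in Tdg_KO and 14.7% in Tdg_WT of the macrophage-like Ccl4 UMIs and 40% in Tdg_KO and 11.4% in Tdg_WT of those of Ccl3, and the ratios without them were 2.64 and 1.61. Classes drawn from marker UMIs without clustering gave 1.21 for Ccl4 and 1.76 for Ccl3. Monocyte-like cells, from 56 cells in Tdg_KO and 89 in Tdg_WT, had ratios of 1.88 (1.73 to 2.04) for Ccl4 and 1.72 (1.52 to 1.95) for Ccl3. With every cell thinned to 1000 UMIs the Ccl3 ratio was 1.1 in monocyte-like and 1.27 in macrophage-like cells, and both calls were lost. All 4 of the 5 genes with at least 50 UMIs in monocyte-like cells were called higher, against 7.42% of all genes called higher and 12.3% in either direction. cDC2-like cells had ratios of 1.34 (1.22 to 1.46) and 1.44 (1.18 to 1.75), neither past 1.5-fold. In neutrophil-like cells Ccl3 had a ratio of 0.745 (0.719 to 0.773) and Ccl4 one of 1.04 (0.993 to 1.09). Of the 5 genes 2 were called higher there, Ccl1 (1.72, interval 1.09 to 2.7) and Xcl1 (7.01, interval 5.85 to 8.43), against 19.4% of all genes called higher and 25.1% in either direction. With every cell weighted equally the Ccl1 ratio there was 0.918. Over all genes with enough UMIs, the median ratio was above 1 by 0.18 on the log2 scale in neutrophil-like, 0.16 in macrophage-like and 0.12 in migratory DC-like cells, and within 0.1 of 0 in the others.

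For Ccl3 and Ccl4 the ratio over all kept cells depended on which classes were counted. Over all kept cells Ccl3 was at 492 CPM in Tdg_KO and 803 CPM in Tdg_WT, a ratio of 0.613 (0.603 to 0.623). Without basophil-like cells the ratio was 0.669, and without basophil-like and neutrophil-like cells it was 1.42, above 1. Ccl4 was at 900.3 CPM in Tdg_KO and 1222 CPM in Tdg_WT, a ratio of 0.737 (0.728 to 0.746), and the same steps gave 1.08 and 1.24. These remainders still held the unnamed clusters dominated by barcodes of more than 1 lineage. Those clusters had 4472 Ccl3 UMIs in Tdg_KO and 1047 in Tdg_WT, and 10687 Ccl4 UMIs in Tdg_KO and 3035 in Tdg_WT. Their part in the ratios of 1.42 and 1.24 was not tested. Neutrophil-like cells were 4.23% of kept cells in Tdg_KO and 12.5% in Tdg_WT. With 1 sorted sample a genotype, a difference in the share of a cell type between the genotypes and one between samples cannot be told apart.

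Within classes, Ccl4 was seen more often in cells with Ccl3 than in cells without. After thinning each cell to 1000 UMIs, Ccl4 was seen in 72.7% of NK-like cells with Ccl3 and 18.1% of those without in Tdg_KO, and in 67.3% and 20.8% in Tdg_WT. In neutrophil-like cells the shares were 57.7% and 22.8% in Tdg_KO, and 53.2% and 18.8% in Tdg_WT. In macrophage-like cells they were 61.2% and 13.1% in Tdg_KO, and 36.1% and 6.38% in Tdg_WT. These classes pool clusters that differ in both genes. The NK-like cluster led by Gzma, Prf1 and Irf8 held Ccl3 in 40.3% and Ccl4 in 71.1% of Tdg_KO cells. The one led by Gzmc, Klrb1b and Klrc1 held them in 9.96% and 18.7%. Co-detection of Ccl3 and Ccl4 within clusters was not tested. The 2 genes were also the nearest to each other across classes. Over 28 points (each of 14 classes in each library, which share library and depth) and 10707 genes with enough UMIs, log2(CPM + 1) of Ccl3 had a Pearson r of 0.94 with Ccl4. The next for Ccl3 were Cd300lf (0.90) and Igfbp6 (0.89), and those for Ccl4 were Tbkbp1 (0.87) and Map7d1 (0.86).

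**Figure D3:**
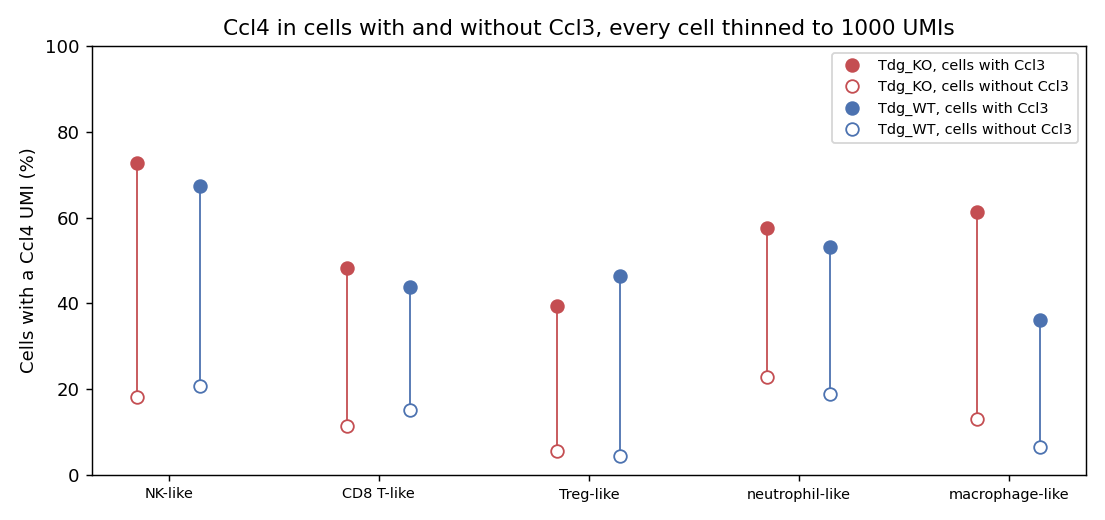
Filled circles give the share (%) of cells with a Ccl4 UMI among cells with a Ccl3 UMI and open circles the share among cells without, after thinning to 1000 UMIs, for classes with at least 20 thinned Ccl3 cells in both libraries. In each of the 5 classes the filled circle stands above the open one in both libraries, for instance 72.7% against 18.1% in NK-like cells of Tdg_KO.

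Ccl5 was highest in NK-like cells and was also held by migratory DC-like cells, while cDC2-like cells were lowest of the compared classes (103 CPM in Tdg_KO and 46.6 CPM in Tdg_WT). NK-like cells had 6558 CPM in Tdg_KO and 8923 CPM in Tdg_WT, and 85.3% of Tdg_KO and 86.2% of Tdg_WT cells held at least 1 UMI. CD8 T-like cells followed at 3546 CPM in Tdg_KO and 3991 CPM in Tdg_WT. Migratory DC-like cells (2331 CPM in Tdg_KO and 3739.9 CPM in Tdg_WT) and the Klra1-led cluster (2763 CPM in Tdg_KO and 3131 CPM in Tdg_WT) did not differ in both libraries beyond the intervals. Treg-like cells (1363 CPM in Tdg_KO and 1473 CPM in Tdg_WT) and CD4 T-like cells (567 CPM in Tdg_KO and 549.6 CPM in Tdg_WT) were lower. As background, cDC1-like cells had Ccl5 in 10.9% of Tdg_KO and 8.51% of Tdg_WT cells, from a median of 5806 UMIs in Tdg_KO and 6418 in Tdg_WT, and in 0% and 0% after thinning. NK-like cells had medians of 5952 and 5422 UMIs. Across classes Ccl5 was most like Klrc1 (r = 0.89), Nkg7 (0.89) and Xcl1 (0.88).

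In NK-like cells Ccl5 had a ratio of 0.735 (0.726 to 0.744), lower in Tdg_KO and short of 1.5-fold. Cells with 100 or more Ccl5 UMIs were 15.4% of the class in Tdg_KO and 21.5% in Tdg_WT, and held 50.4% and 61.3% of its Ccl5 UMIs. The cluster led by Gzma, Prf1 and Irf8 reached 28767 CPM in Tdg_KO and 33104 CPM in Tdg_WT, in every cell, from 159 Tdg_KO and 191 Tdg_WT cells. The cluster led by Gzmc, Klrb1b and Klrc1 had 812 CPM in Tdg_KO and 1094 CPM in Tdg_WT. Ratios within the 4 NK-like clusters were 0.869, 0.834, 0.771 and 0.742, each below 1 and each nearer to 1 than the value of the class as a whole. CD8 T-like cells had a ratio of 0.889 (0.867 to 0.911). Their cluster led by Cd8b1, Cd8a and Ly6c2 was at 6604 CPM in Tdg_KO and 7905 CPM in Tdg_WT, and the one led by Cd8a, Cd8b1 and Lag3 at 2179 CPM in Tdg_KO and 1921 CPM in Tdg_WT, where the ratio was 1.13 (1.09 to 1.18).

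In migratory DC-like cells, named from Ccr7, Fscn1 and like markers, Ccl5 was called lower in Tdg_KO, at 0.623 (0.593 to 0.655). The cluster led by Fscn1, Ccl22 and Ccr7 was at 1676 CPM in Tdg_KO and 3256 CPM in Tdg_WT, and the one led by Fscn1, Cst3 and Ccl22 at 5102 CPM in Tdg_KO and 5178 CPM in Tdg_WT, with ratios of 0.515 (0.483 to 0.548) and 0.985 (0.91 to 1.07). All 5 genes were called in this class, 4 higher and Ccl5 lower, against 13% of all genes. The 4 were Ccl1 (8.22, interval 3.59 to 23.2), Ccl3 (19.8, interval 11.4 to 37.6), Ccl4 (10.6, interval 7.87 to 14.7) and Xcl1 (2.96, interval 2.41 to 3.65). Barcodes of 2 lineages were 25.9% of the class in Tdg_KO and 15.9% in Tdg_WT, and held 88.8% in Tdg_KO and 66.7% in Tdg_WT of the Ccl4 UMIs, against 33.2% in Tdg_KO and 24.7% in Tdg_WT of those of Ccl5. A single Tdg_KO barcode held 78.3% of the Ccl3 and 70.8% of the Ccl4 UMIs. Without the top barcode of each library the ratios were 7.75 for Ccl3, 6.18 for Ccl4, 4.83 for Xcl1 and 0.609 for Ccl5. With every cell thinned the Ccl3 ratio was 1.36 and that of Ccl5 0.698, and neither was called. Without barcodes of 2 lineages Xcl1 was 22.9, Ccl3 4.43, Ccl4 5.14 and Ccl5 0.795, the last not called. These barcodes held 111 of the 116 Xcl1 UMIs in Tdg_WT, so the value of 22.9 rests on few UMIs. They held 338 of 355 Ccl3 UMIs in Tdg_KO and 9 of 13 in Tdg_WT. The Ccl3 UMIs left were under the 50 needed for a call.

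Ccl5 was also called higher in 2 classes of phagocytes. Macrophage-like cells had 373 CPM in Tdg_KO and 155 CPM in Tdg_WT, a ratio of 2.41 (2.07 to 2.82), and held it in 27.2% of Tdg_KO and 22.1% of Tdg_WT cells. Barcodes of 2 lineages held 38.5% in Tdg_KO and 28.8% in Tdg_WT of these UMIs, and the ratio was 2.5 without them. Monocyte-like cells had 343 CPM in Tdg_KO and 47.6 CPM in Tdg_WT, a ratio of 7.2 (5.1 to 10.4), and held it in 32.1% of Tdg_KO and 27% of Tdg_WT cells. There the ratio was 6.68 without barcodes of 2 lineages and 7.81 without the top barcode of each library, but 1.76 at the coarser clustering and 13.4 thinned.

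Xcl1 was highest in NK-like cells (2229 CPM in Tdg_KO and 2122 CPM in Tdg_WT), then in the Klra1-led cluster (1750.5 CPM in Tdg_KO and 1618 CPM in Tdg_WT) and in CD8 T-like cells (1642 CPM in Tdg_KO and 1183 CPM in Tdg_WT), each above the next beyond the intervals in both libraries. It was seen in 83.6% of Tdg_KO and 81.5% of Tdg_WT cells of the NK-like class and 82.2% of Tdg_KO and 82.5% of Tdg_WT cells of the Klra1-led cluster. The ratios were 1.05 (1.03 to 1.08) and 1.08 (1.04 to 1.12) there. In CD8 T-like cells it was 1.39 (1.33 to 1.45), higher in Tdg_KO and short of 1.5-fold, with Xcl1 in 60.8% of Tdg_KO and 40.5% of Tdg_WT cells and, after thinning, in 34.8% and 24.1%. Both CD8 T-like clusters had more Xcl1 in Tdg_KO, with 2284 CPM in Tdg_KO and 1759 CPM in Tdg_WT in the one led by Cd8a, Cd8b1 and Lag3, and 208 CPM in Tdg_KO and 92.3 CPM in Tdg_WT in the one led by Cd8b1, Cd8a and Ly6c2. In Treg-like cells the level was 688 CPM in Tdg_KO and 522 CPM in Tdg_WT, a ratio of 1.32 (1.26 to 1.38). The Treg-like cluster led by Tnfrsf4, Ikzf2 and Tnfrsf9 had 1102 CPM in Tdg_KO and 1124 CPM in Tdg_WT, a ratio of 0.98 (0.934 to 1.03), and held 266 cells in Tdg_KO and 130 in Tdg_WT. The one led by Tnfrsf4, Foxp3 and Il2ra had 58.4 CPM in Tdg_KO and 23.9 CPM in Tdg_WT, a ratio of 2.44 (1.82 to 3.32) that was called higher. Genes most like Xcl1 across classes were Cd160 (r = 0.93), Nkg7 (0.92) and Emid1 (0.90), and those most like Ccl1 were Nrgn (0.87), Ryk (0.86) and Tent5a (0.85).

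Within CD8 T-like cells Xcl1 went with Ccl1 and against Ccl5. After thinning, Xcl1 was seen in 76.9% of cells with Ccl1 and 32.1% of those without in Tdg_KO, and in 80% and 18.9% in Tdg_WT, from 26 thinned cells with Ccl1 in Tdg_KO and 30 in Tdg_WT. It was seen in 27.1% of cells with Ccl5 and 46.2% of those without in Tdg_KO, and in 17.9% and 32.7% in Tdg_WT. The class joins a cluster rich in Xcl1 and Ccl1 with one rich in Ccl5, so the shares were also taken within them. In the cluster led by Cd8a, Cd8b1 and Lag3, Xcl1 was seen in 76.9% of 26 cells with Ccl1 and 46.6% of 234 without in Tdg_KO and in 82.8% of 29 cells with Ccl1 and 32.7% of 165 without in Tdg_WT. For Ccl5 in the same cluster, it was seen in 42.6% of 129 cells with Ccl5 and 56.5% of 131 without in Tdg_KO and in 32.3% of 96 cells with Ccl5 and 48% of 98 without in Tdg_WT. In the cluster led by Cd8b1, Cd8a and Ly6c2, too few cells held Ccl1 for a comparison, and Xcl1 was seen in 10.7% of 122 cells with Ccl5 and 12.5% of 40 without in Tdg_KO and in 4.76% of 105 cells with Ccl5 and 2.04% of 49 without in Tdg_WT, not ordered alike. The Klra1-led cluster showed the pattern with Ccl5 too, at 44.1% and 65.7% in Tdg_KO and 46.6% and 55.9% in Tdg_WT. In CD4 T-like cells the libraries were unlike, since Xcl1 was in 20.5% of cells with Ccl1 and 3.52% of those without in Tdg_KO, and in 3.9% and 3.48% in Tdg_WT.

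Xcl1 in phagocytes was higher in Tdg_KO but came from few barcodes. Neutrophil-like cells had 654 CPM in Tdg_KO and 93.4 CPM in Tdg_WT, a ratio of 7.01 (5.85 to 8.43), and barcodes of 2 lineages held 90.9% in Tdg_KO and 42.9% in Tdg_WT of these UMIs. The ratio was 1.51 without them. Macrophage-like cells had 157 CPM in Tdg_KO and 6.27 CPM in Tdg_WT, with 95.8% in Tdg_KO and 33.3% in Tdg_WT in barcodes of 2 lineages. Monocyte-like cells had 261 CPM in Tdg_KO and 7.14 CPM in Tdg_WT, and 1 Tdg_KO barcode held 97.2% of the UMIs. The ratio there was 1.55 without the top barcode of each library. Without barcodes of 2 lineages the Xcl1 ratio was 1.87 in macrophage-like and 1.09 in monocyte-like cells, and neither was called. cDC1-like cells, the class highest in Xcr1, had Xcl1 in 5.45% of Tdg_KO cells and in none of 47 Tdg_WT cells. In gamma-delta T-like cells all 3 genes with enough UMIs were called higher, against 5.23% of all genes called higher and 7.31% in either direction, namely Ccl1 (46.2, interval 8.03 to 1849), Ccl5 (1.74, interval 1.39 to 2.2) and Xcl1 (2.22, interval 1.36 to 3.74). The Ccl1 UMIs of these cells numbered 72 in Tdg_KO and 1 in Tdg_WT, and in classes drawn from marker UMIs the ratio was 1.21 for Ccl1 and 0.246 for Xcl1. The call of Ccl5 was lost with thinning, at 2.31 (an interval that held 1), and that of Xcl1 at 1.24. In ILC2-like cells 1 of the 2 genes with enough UMIs was called, Ccl5 (1.71, interval 1.23 to 2.41), against 12.2% of all genes, and its ratio was 0.757 after thinning. In naive-like T cells 1 of 3 was called, Xcl1 (0.567, interval 0.425 to 0.748), against 4.32%, and it was 0.843 without the top barcode of each library and 2.03 in classes drawn from marker UMIs. In B-like cells 3 of 5 were called, against 5.51%, with Ccl1 (17.1, interval 8.65 to 38.6) and Xcl1 (2.33, interval 1.89 to 2.88) higher and Ccl4 (0.133, interval 0.0891 to 0.192) lower, and 30.5% of B-like barcodes in Tdg_KO and 29% in Tdg_WT were of 2 lineages. These barcodes held 100% in Tdg_KO and 77.8% in Tdg_WT of the B-like Ccl1 UMIs, 97.3% in Tdg_KO and 94.8% in Tdg_WT of those of Xcl1 and 58.1% in Tdg_KO and 88.6% in Tdg_WT of those of Ccl4. Without them the Xcl1 ratio was 1.29, not called, and the Ccl4 ratio 0.52. Without the top barcode of each library the B-like ratios were 9.69, 2.1 and 0.425. In the Klra1-led cluster 1 of 5 was called, the Ccl1 value given above, against 3.83%. In cDC2-like cells 1 of 3 was called, Ccl5 (2.22, interval 1.54 to 3.24), against 10.2%, and its ratio was 1.33 without the top barcode of each library and 1.17 at the coarser clustering.

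**Figure D4:**
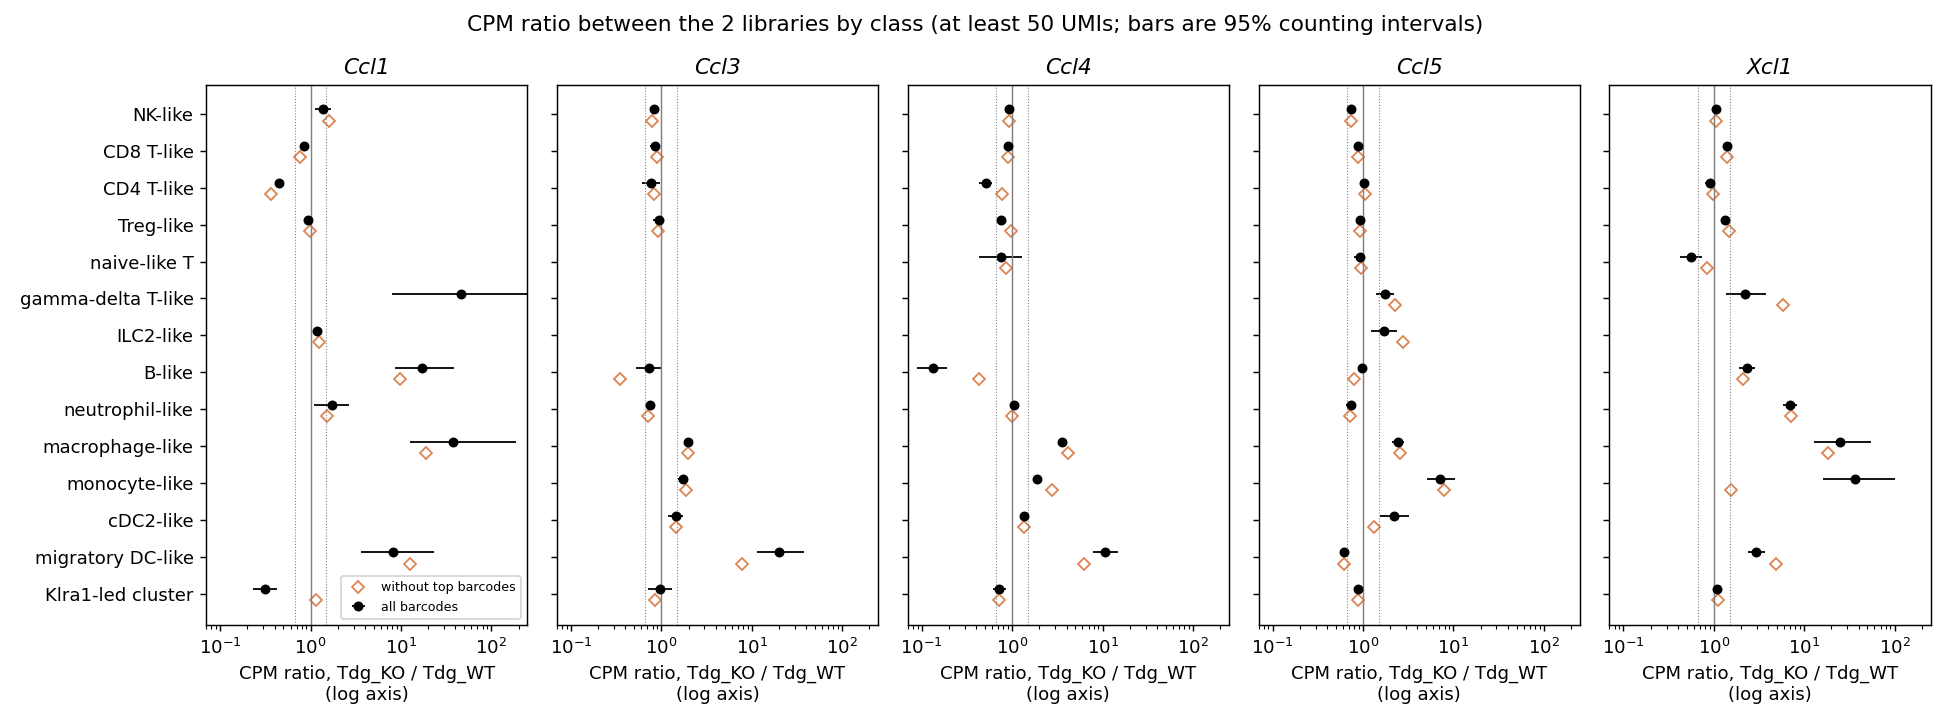
Black points give the CPM ratio of Tdg_KO over Tdg_WT (log axis) with 95% counting intervals for each class with at least 50 UMIs of the gene, and open diamonds the ratio without the top barcode of each library, with dotted lines at 1.5-fold. In CD4 T-like cells Ccl1 lies at 0.444 and stays low without the top barcodes, while Xcl1 in monocyte-like cells lies at 36.5 and moves to 1.55.

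**Figure D5:**
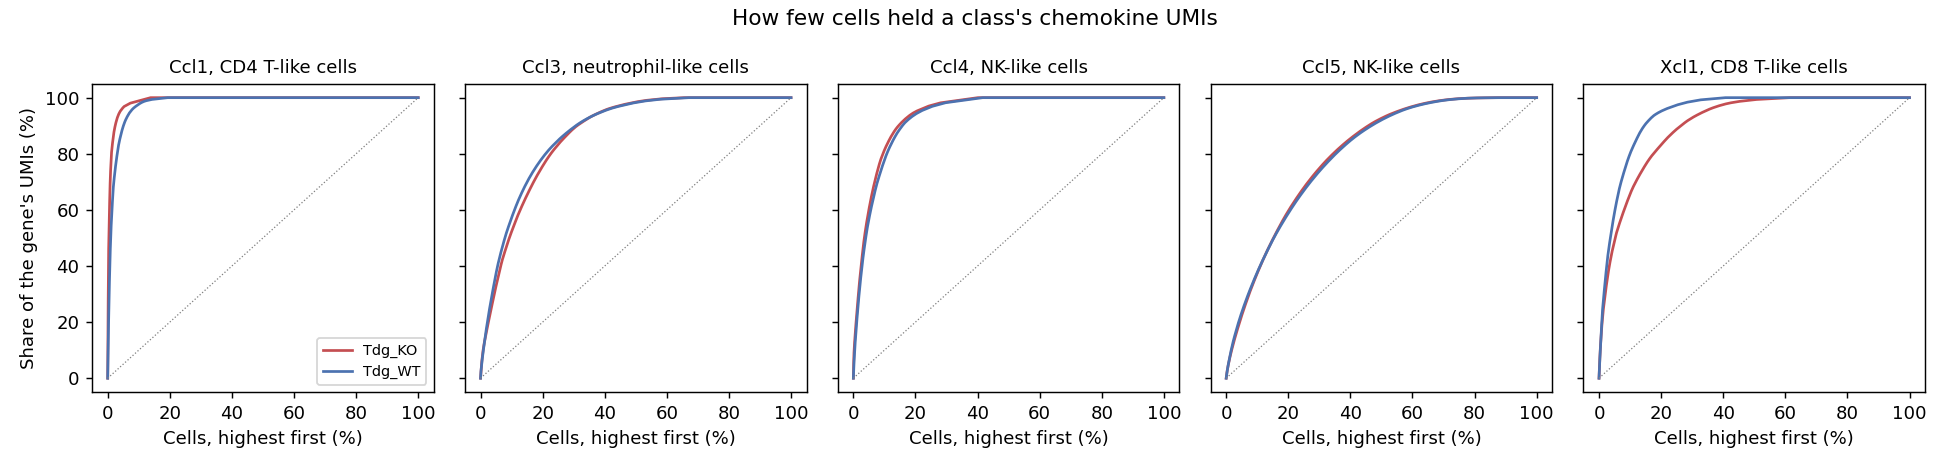
Lines give the cumulative share (%) of a gene's UMIs against the share (%) of the class's cells, taken from the cell with most UMIs down, and the dotted diagonal marks an even spread. The top 10% of cells held 98.9% of the Ccl1 UMIs of CD4 T-like cells in Tdg_KO and 97.7% in Tdg_WT, against 37.4% and 37.8% of the Ccl5 UMIs of NK-like cells.

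The 5 genes differed in how evenly their cells shared them, as the plot of cumulative UMIs shows. Ccl5 in NK-like cells was spread over most cells, and its top barcode held 1.02% of the UMIs in Tdg_KO and 1.04% in Tdg_WT. Xcl1 in NK-like cells was close to it, with 2.1% of the UMIs in Tdg_KO and 3.34% in Tdg_WT. Ccl4 in NK-like cells was in between, and the top 10% of cells held 81.3% of its UMIs in Tdg_KO and 77.8% in Tdg_WT. For Ccl3 in neutrophil-like cells the top 10% held 53.3% and 57.3%. Xcl1 in CD8 T-like cells was spread more widely in Tdg_KO, where the top 10% of cells held 66%, than in Tdg_WT, where they held 80.7%.

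Receptors of these chemokines were compared in the same classes. Xcr1, the receptor of Xcl1, was highest in cDC1-like cells at 333 CPM in Tdg_KO and 201 CPM in Tdg_WT. Xcr1 was among the genes that lead this cluster, so its rank there is no separate result. The cDC1-like ratio was 1.66 (1.21 to 2.28), called higher, from 55 cells in Tdg_KO and 47 in Tdg_WT, outside the compared classes. The cDC2-like level was 73 CPM in Tdg_KO and 31.7 CPM in Tdg_WT, a ratio of 2.3 (1.47 to 3.65) that was called higher. It came from few cells, with 60 UMIs in 9.46% of 74 Tdg_KO cells and 32 UMIs in 5.68% of 88 Tdg_WT cells. Xcr1 was a marker of the cDC1 set, and whether these few were cDC1 cells was not tested. Ccr8, the receptor of Ccl1, was at 12.3 CPM in Tdg_KO and 21.5 CPM in Tdg_WT in CD4 T-like cells, a ratio of 0.574 (0.393 to 0.828) that was called lower. In Treg-like cells it was at 20 CPM in Tdg_KO and 20.8 CPM in Tdg_WT, a ratio of 0.963 (0.742 to 1.25), and in ILC2-like cells at 30.5 CPM in Tdg_KO and 38.5 CPM in Tdg_WT. Ccr1 was highest in neutrophil-like cells at 438 CPM in Tdg_KO and 554 CPM in Tdg_WT and in basophil-like cells at 376 CPM in Tdg_KO and 441 CPM in Tdg_WT, the classes richest in Ccl3, and was called lower in Treg-like cells (0.65, interval 0.519 to 0.814). Ccr3, a receptor of Ccl5, was at 22.9 CPM in Tdg_KO and 24.7 CPM in Tdg_WT in Treg-like cells. Ackr2, a receptor that clears CC chemokines without signalling, had 1 UMI in the named classes of both libraries together.

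Genes that are induced with these chemokines on activation were compared as a list of 20, which holds cytokines, TNF family members and the Nr4a and Egr factors of antigen response. In CD4 T-like cells 1 of 20 was called higher and 3 lower, against 5.18% of all genes called, and the list's median log2 ratio was -0.18 against 0.08 over all genes. The 3 were Csf2, the GM-CSF gene (65.2 CPM in Tdg_KO and 222 CPM in Tdg_WT, a ratio of 0.294, interval 0.254 to 0.339), Tnfrsf9, the 4-1BB gene (0.642, interval 0.577 to 0.714), and Il2, the interleukin 2 gene (0.65, interval 0.507 to 0.831). Cd69 and Nr4a1, which respond early to receptor signals, had ratios of 0.864 (0.808 to 0.924) and 0.985 (0.914 to 1.06). In NK-like cells 0 of 18 were called higher and 3 lower, against 3.83% of all genes, among them Csf2 (0.294, interval 0.209 to 0.408). In CD8 T-like cells Ifng, the interferon gamma gene, was called lower at 129 CPM in Tdg_KO and 328 CPM in Tdg_WT, and Nr4a3 higher (1.51, interval 1.34 to 1.7), while 1 of 20 in all was called higher and 2 lower, against 4.52% of all genes. In Treg-like cells 6 of 20 were called higher and 0 lower, against 4.62% of all genes, with Il2 at 53.9 CPM in Tdg_KO and 13.1 CPM in Tdg_WT. Of 22 immediate early and heat shock genes, 5 were called higher in the same cells, Atf3, Hspa1a, Hspa1b, Hsph1 and Dnajb1, and 1 lower, Ier3. The Treg-like cluster led by Tnfrsf4, Ikzf2 and Tnfrsf9 held 266 of 735 Tdg_KO and 130 of 578 Tdg_WT cells of the class. Barcodes of 2 lineages were 18.9% of the class in Tdg_KO and 15.2% in Tdg_WT. The part of either in the Treg-like counts was not tested.

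In macrophage-like cells, where all 5 chemokines were higher, 11 of 15 genes of the same list were called higher and 1 lower, against 15.7% of all genes called higher and 19.3% in either direction, with a median log2 ratio of 1.08 against 0.16 over all genes. The immediate early factor Egr1 had 428 CPM in Tdg_KO and 173 CPM in Tdg_WT, and Tnf 117 CPM in Tdg_KO and 55 CPM in Tdg_WT. Ifng and Tnfsf11, genes known from T and NK cells, were among the 11, and 8.09% of macrophage-like barcodes in Tdg_KO and 5.96% in Tdg_WT were of 2 lineages. Of 22 immediate early and heat shock genes, which also respond to tissue dissociation, 11 were called higher and 1 lower in these cells, against the same shares of all genes, among the first Hspa1a (535 CPM in Tdg_KO and 166 CPM in Tdg_WT, a ratio of 3.21, interval 2.79 to 3.72). In NK-like cells 0 of 22 were called higher and 0 lower, against 3.83% of all genes in either direction. In CD4 T-like cells 1 of 22 was called higher, Hsph1 (1.51, interval 1.3 to 1.75), and 0 lower, against 5.18%. More of the list was called in other classes. In cDC2-like cells 11 of 22 were higher and 1 lower, against 10.2% of all genes in either direction. In migratory DC-like cells 7 of 22 were higher and 1 lower, against 13%. In monocyte-like cells 6 of 21 were higher, against 7.42% of all genes called higher. In neutrophil-like cells 7 of 22 were higher, against 19.4%. There the list's median log2 ratio of 0.22 was near the 0.18 over all genes. Of 15 transcription factors tied to these chemokine genes, 8 were called higher and 0 lower in macrophage-like cells, where 15.7% of all genes were called higher, with Nfkb1 at 2.28 (1.9 to 2.75) and Rel at 1.86 (1.63 to 2.12). In CD4 T-like cells 0 and 0 of 17 were called, against 5.18% of all genes in either direction. In NK-like cells 0 and 0 of 18 were called, against 3.83%. With shares this low, 0 calls in lists of this size are near the share of all genes. In CD8 T-like cells Eomes, a T-box factor of cytotoxic cells, was called higher (1.79, interval 1.31 to 2.47) and Prdm1, the Blimp-1 gene, lower (0.59, interval 0.389 to 0.889). The part of handling in the ratios of these classes was not tested. The macrophage-like class also pooled its clusters in unlike proportions. The cluster led by Mmp12, Arg1 and Lyz2, with Ccl6 among its leading genes, held 60 of 346 Tdg_KO and 124 of 285 Tdg_WT cells. The one led by Apoe, C1qb and C1qa held 229 Tdg_KO and 120 Tdg_WT cells. The part of these proportions in the macrophage-like ratios and counts was not tested. Other CC chemokines of these cells did not move as 1 group. Of 9 with enough UMIs, 3 were called higher and 2 lower, against 19.3% of all genes, with the Ccr4 ligands Ccl17 (719 CPM in Tdg_KO and 312 CPM in Tdg_WT) and Ccl22 (145 CPM in Tdg_KO and 16 CPM in Tdg_WT) among the higher, and the Ccr3 ligand Ccl24 (153 CPM in Tdg_KO and 625 CPM in Tdg_WT) and Ccl6 (1503 CPM in Tdg_KO and 2417 CPM in Tdg_WT) lower.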

How the data were processed

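The deposited values were UMI counts per gene and cell barcode, made by the authors with Cell Ranger 6.0.1 per the file headers, on build mm10 per the submitters' processing notes, which also name Seurat. No step of Seurat is recorded for these counts. Each of the 32285 listed genes was used by symbol (32245 symbols, entries that share one summed). A barcode was kept if it had 200 or more genes and no more than 10% of its UMIs from mitochondrial genes. Scanpy 1.11.5 clustered both libraries together (2000 variable genes without the 5 chemokines, 30 components, Leiden resolution 1), and clusters were named from 23 marker sets. No doublet caller was run. Instead, a barcode counted as of 2 lineages when each lineage had UMIs from 3 or more different markers. The members and the gene lists were chosen with earlier results of these data known.

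Raw counts were summed per class and library, and ratios of CPM got exact conditional Poisson intervals (SciPy 1.17.1). No test across samples was possible with 1 sample a group. The call rule was checked on simulated counts. Its intervals cover counting error only, not UMIs clumped in 1 barcode or differences between libraries. Genes with under 50 UMIs in a class were not called. Named genes were the 5, receptors of theirs (1 is not reported here), the called or most abundant genes of the other lists, and the 3 most alike across classes. The 9 alternatives were other clusterings (chemokines included, resolution 0.5), marker UMIs without clusters, stricter barcodes (at least 500 genes, at most 5% mitochondrial), thinning to 1000 UMIs, equal weight per cell, no barcodes of 2 lineages, no top barcode and median-of-ratios scaling, besides calls at 10 UMIs or 2-fold. Sequences are from RefSeq (GRCm38.p6).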

Additional observations from a re-analysis of the deposited data

Results flagged for a closer look

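Ccl4 was called in opposite directions in different classes, and each of these ratios stayed on its side of 1, though not always past 1.5-fold, under every alternative that gave a value. It was lower in Tdg_KO in CD4 T-like cells (0.507) and B-like cells (0.133). It was higher in macrophage-like cells (3.56), monocyte-like cells (1.88) and migratory DC-like cells (10.6). One Tdg_WT barcode held 74.1% of the B-like Ccl4 UMIs, and the ratio there was 0.425 without the top barcode of each library.

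Ccl5 was lower in Tdg_KO in migratory DC-like cells (0.623). It was higher in gamma-delta T-like (1.74), macrophage-like (2.41), monocyte-like (7.2) and cDC2-like cells (2.22). With 1 library a group, the difference between classes was not tested for either gene.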

How the results depend on the processing

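Of 60 class ratios, 28 were called, and 22 of these stayed on the same side of 1 under every alternative that gave a value, while 10 stayed called under each that gave a call. Several alternatives gave none where no UMI was left in Tdg_WT or the Klra1-led cluster was not split off. The share of all genes called in a class ran from 3.83% in NK-like cells to 25.1% in neutrophil-like cells. How calls fared under the alternatives was counted only for these 60 ratios. Ccl1 in CD4 T-like cells was 0.374 with marker UMIs and no clusters, 0.34 without barcodes of 2 lineages, 0.391 thinned, 0.394 with equal weight per cell, 0.361 without the top barcodes and 0.42 with median-of-ratios scaling. In NK-like cells Ccl3 was 0.984 with marker UMIs, 0.65 thinned and 0.728 with equal weights, and Ccl4 was 0.87 thinned, 0.855 with equal weights and 0.893 with median-of-ratios scaling. Ccl5 there was 0.717 with the chemokines among the variable genes, 0.717 at resolution 0.5, 0.821 with marker UMIs, 0.764 without barcodes of 2 lineages, 0.757 thinned, 0.75 with equal weights and 0.703 with median-of-ratios scaling, and Xcl1 was 1.08 with marker UMIs, 1.002 without barcodes of 2 lineages and 1.005 with median-of-ratios scaling. Ccl3 over all kept cells, in alternatives chosen after seeing the data, was 0.669 without basophil-like cells and 1.42 without neutrophil-like cells as well, and Ccl4 was 1.08 and 1.24. These values still include the unnamed clusters of 2 lineages. The calls that crossed 1 were Ccl1 in neutrophil-like cells (0.918, equal weights), in macrophage-like cells (0.52 with marker UMIs, 0.623 without barcodes of 2 lineages) and in the Klra1-led cluster (2.64 without those barcodes, 1.16 without the top barcodes), Ccl5 in ILC2-like cells (0.757, thinned), and Xcl1 in naive-like (2.03) and gamma-delta T-like cells (0.246), both with marker UMIs. The cause was not tested. No paired analysis was possible because each group is 1 library. Depth limits the small classes, where 1 barcode can set a ratio.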
